A study of Mus musculus with 6 samples.

Results

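The genes described here encode the scaffold proteins of the excitatory postsynaptic density and the adhesion molecules that span the synaptic cleft. They were taken by name, as a list of 39 genes with these roles, and the rule for the list used no measured value, although earlier results of these data were known when it was written. The count table held 55471 genes, of which 17981 had enough counts to be tested, and all 39 genes were among those tested. RNA of the hippocampus was sequenced in 3 Control samples and 3 CBP-ifKO samples. CBP-ifKO mice carried floxed Crebbp alleles and the Camk2a_creERT2 transgene (labelled Crebbp_flox;Camk2a_creERT2), and lost functional CBP, a lysine acetyltransferase and transcriptional coactivator, after tamoxifen. The transgene uses the promoter of Camk2a, which is active in forebrain excitatory neurons, so that glia and inhibitory neurons of the tissue keep the gene, and the methods of the study describe the remaining product as a truncated protein. Both groups were labelled C57BL/6 (C57BL/6J in the methods of the study), were 3 to 6 months old and received 5 intragastric doses of tamoxifen (20 mg/mL in corn oil) on alternate days, and each sample pooled hippocampi of 3 female mice. The labels disagree about the controls, since the sample description gives them Camk2a_creERT2 whereas the treatment text calls them littermates without the transgene. The methods of the study also describe controls without it, and the groups would then differ in the transgene as well as in Crebbp.

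At the excitatory synapse, PSD-95 and the other membrane-associated guanylate kinases (MAGUKs) hold glutamate receptors and adhesion molecules at the membrane. SAPAP proteins connect this layer to the deeper SHANK proteins, which in turn bind Homer and the actin cytoskeleton. Across the cleft, presynaptic neurexins pair with postsynaptic neuroligins and leucine-rich repeat transmembrane (LRRTM) proteins, while SLITRK, LRFN and IL1RAPL proteins form a parallel set of adhesion complexes.

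The targeted gene was examined first. Crebbp had 208.6, 156.4 and 208.5 CPM in the Control libraries, given here and below in the order of their replicate numbers, and 108.6, 87.1 and 99.4 CPM in those of CBP-ifKO. CPM are counts per gene divided by library size, corrected with the trimmed mean of M values (TMM). The log2 fold change was -0.96 (SE 0.100, adjusted p of 3.63e-05 by edgeR), and the groups did not overlap. Esr1, part of which is contained in creERT2, ranged from 5.65 to 6.29 CPM in Control and from 63.6 to 69.4 CPM in CBP-ifKO libraries. Arsi, which the study places on the driver construct, ranged from 0.47 to 0.94 CPM in Control and from 4.67 to 6.34 CPM in CBP-ifKO. Both were low in every Control library, which goes with controls that lack the transgene. Total counts ranged from 10199008 to 14950257 per library. Markers of hippocampal excitatory neurons were present in each library, with summed levels of 5 genes between 1559 and 1855 CPM, and none of the marker lists examined was at 0.

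Of the 39 genes, 13 were lower and 1 was higher in CBP-ifKO than in Control at an edgeR adjusted p under 0.05, and 25 did not pass this threshold. Over all genes tested, 4.99% were called lower and 1.4% higher. The lower genes were Nrgn, Dlgap3, Dlgap4, Nrxn2, Shank1, Shank3, Dlg4, Iqsec2, Baiap2, Lrrtm1, Shank2, Iqsec1 and Dlgap1, and the higher gene was Lrrtm4. Log2 fold changes ran from -0.73 for Nrgn to 0.32 for Lrrtm4 with a median of -0.18, and 32 were negative and 7 positive. The median over all genes tested was -0.0033. The 3 CBP-ifKO libraries all lay below the 3 Control libraries for 18 of the 39 genes and above for 1, where 13.9% and 11.8% of all genes tested had such a separation downward and upward. In bulk tissue, a loss of cells of one type and a loss of RNA per cell cannot be told apart. With DESeq2 the counts were 12 lower and 1 higher, against 4.94% and 1.23% of all genes with an adjusted p.

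**Figure D1:**
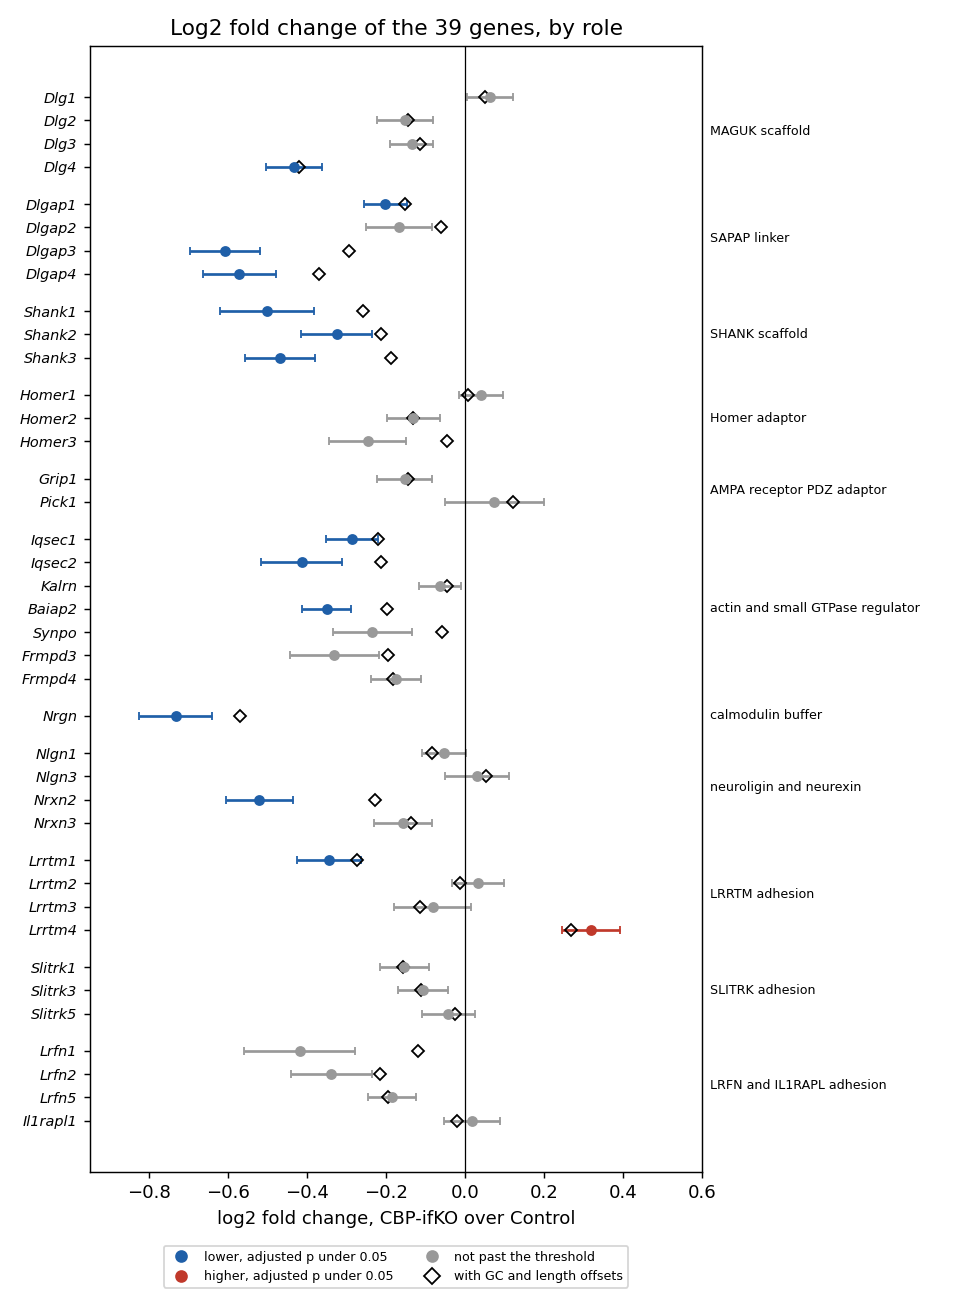
Log2 fold change (CBP-ifKO over Control, x axis) of each of the 39 genes (y axis), grouped by role. Circles and bars give the edgeR estimate and its standard error from 3 against 3 libraries, blue and red mark genes called lower and higher, and open diamonds give the estimate after removal of GC and length trends. Nrgn lies farthest to the left at -0.73, Lrrtm4 is the red point at 0.32, and the diamonds of Dlgap3, the SHANK genes and Nrxn2 lie nearer to 0 than their circles.

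Promoter sequences are shown for 4 genes on which the results turn, namely the gene that fell most (Nrgn), a strongly reduced SAPAP linker (Dlgap3), an actin regulator that kept its call in every setting tried (Baiap2) and the gene that rose (Lrrtm4). Each run gives the 250 bases before a RefSeq start site, 5′ to 3′ on the strand of the gene, in build GRCm38.p6. Capitals mark GC boxes (GGGCGG), EGR sites (GCGGGGGCG) and TATA boxes (TATAAA) read on both strands, and a GC box can overlap an EGR site.
Nrgn, chr9:37552746-37552995, minus strand: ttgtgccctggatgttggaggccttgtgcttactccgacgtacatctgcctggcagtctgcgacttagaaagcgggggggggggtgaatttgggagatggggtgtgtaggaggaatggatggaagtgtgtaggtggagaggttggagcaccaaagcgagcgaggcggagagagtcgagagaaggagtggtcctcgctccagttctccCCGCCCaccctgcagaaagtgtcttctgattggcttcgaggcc
Baiap2, chr11:119942842-119943091, plus strand: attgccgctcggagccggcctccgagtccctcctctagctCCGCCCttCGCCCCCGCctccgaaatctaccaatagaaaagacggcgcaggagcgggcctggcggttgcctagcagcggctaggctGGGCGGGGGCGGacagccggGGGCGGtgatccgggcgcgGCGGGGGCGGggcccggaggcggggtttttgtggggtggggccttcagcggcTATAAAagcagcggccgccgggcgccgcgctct
Dlgap3, chr4:127172630-127172879, plus strand: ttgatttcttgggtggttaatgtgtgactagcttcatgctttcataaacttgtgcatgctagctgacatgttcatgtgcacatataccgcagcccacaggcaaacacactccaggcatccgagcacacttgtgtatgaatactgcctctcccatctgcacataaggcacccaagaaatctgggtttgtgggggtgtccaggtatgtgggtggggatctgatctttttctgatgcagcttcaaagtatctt
Lrrtm4, chr6:80018627-80018876, plus strand: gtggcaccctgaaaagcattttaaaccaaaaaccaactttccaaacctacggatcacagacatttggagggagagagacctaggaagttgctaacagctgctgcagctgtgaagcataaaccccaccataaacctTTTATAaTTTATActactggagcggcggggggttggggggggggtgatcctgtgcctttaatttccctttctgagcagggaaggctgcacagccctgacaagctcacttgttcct
The Baiap2 window held 9 matches, which comprised GC boxes, EGR sites and 1 TATA box whose first base lay 33 bases before the start. The Nrgn window held 1 GC box, at 43 bases before the start. No match was found in the Dlgap3 window, and the Lrrtm4 window held 2 TATA boxes, both more than 100 bases upstream. A second RefSeq start of Lrrtm4, with its window at chr6:80019393-80019642, had no match either.

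RefSeq windows (250 bases before to 50 after a start) were found for 30 of the 39 genes, 52 windows in all, since several genes have more than 1 start. The full cAMP response element TGACGTCA, the site bound by CREB, the factor after which CBP is named, was in 0 of the 52 windows and in 1.79% of 32851 windows of all genes. Its core TGACG, which lies within the full element, was in 15.4% of the 52 windows and in 20.8% of all. GC boxes were in 38.5% against 35.7%, TATA boxes in 11.5% against 13.6% and EGR sites in 7.69% against 2.91%. By gene, a GC box was present for 8 of the 10 lower genes with a window and for 9 of the 19 genes not called. An EGR site was present for 3 of the 10 and 1 of the 19. The core TGACG was present for 2 of the 10 and 6 of the 19, and a TATA box for 1 of the 10 and 4 of the 19. Shares by gene were not computed over all genes, so these counts have no background. The median GC content of the windows was 56% against 52.7% over all windows. These matches describe letters in the windows, and nothing was drawn from their presence or absence.

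Nrgn encodes neurogranin, a postsynaptic protein that binds calmodulin when calcium is low. Nrgn (ENSMUSG00000053310, chr9:37544492-37552904) had 176.4, 222.5 and 202.3 CPM in the Control libraries and 132.3, 102.9 and 127.5 CPM in those of CBP-ifKO. The groups did not overlap, and the CBP-ifKO mean of 120.9 ± 15.8 CPM was 60.3% of the Control mean of 200.4 ± 23.1 CPM (SD, n = 3). The log2 fold change was -0.73 (SE 0.092, adjusted p of 0.000176 by edgeR). It ran from -0.82 to -0.62 when single libraries were left out, and was -0.57 with GC and length trends removed.

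Among the MAGUK scaffolds, Dlg4 fell and its 3 paralogues did not pass the threshold. Dlg4, which encodes PSD-95 (ENSMUSG00000020886, chr11:70016942-70047522), had 364.9, 353.1 and 371.4 CPM in the Control libraries and 296.7, 237.9 and 272.5 CPM in those of CBP-ifKO. The lowest Control library was above the highest CBP-ifKO library, and the log2 fold change was -0.43 (SE 0.070, adjusted p of 0.00133 by edgeR). With GC and length trends removed it was -0.42, so that Dlg4, at 46.8% GC, hardly moved. That GC content is of the longest annotated transcript, and the length given with the counts was 13251 bases. Either may differ from the Dlg4 transcripts expressed here, so the size of the correction for this gene is uncertain. Dlg1, which encodes SAP97, had means of 175.4 ± 4.42 and 183.1 ± 8.22 CPM (SD, n = 3) in Control and CBP-ifKO and a log2 fold change of 0.06 (edgeR adjusted p 0.593). The estimates were -0.15 for Dlg2 (PSD-93) and -0.14 for Dlg3 (SAP102), with edgeR adjusted p of 0.222 and 0.163. Within single libraries, the ratio of Dlg4 to Dlg1 CPM was 2.13, 2.01 and 2.07 in Control and 1.70, 1.25 and 1.48 in CBP-ifKO. The ratio to Dlg3 was 1.60, 1.57 and 1.56 in Control and 1.45, 1.13 and 1.28 in CBP-ifKO. For Dlg2 the groups nearly met, at 0.67, 0.79 and 0.68 in Control and 0.63, 0.51 and 0.61 in CBP-ifKO. The pairs were named with the changes known, so the ratios are given without a test.

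The SAPAP linkers, which join MAGUKs to SHANK proteins, had 3 of 4 genes lower. Dlgap3 (ENSMUSG00000042388, chr4:127169204-127237022) had 75.0, 97.5 and 87.1 CPM in the Control libraries and 55.9, 53.1 and 61.6 CPM in those of CBP-ifKO. Dlgap4 (ENSMUSG00000061689, chr2:156613705-156764363) had 97.8, 90.9 and 105.8 CPM in the Control libraries and 74.7, 55.4 and 68.7 CPM in those of CBP-ifKO. Both were separated between the groups, by log2 fold changes of -0.61 (SE 0.089, adjusted p of 0.000588 by edgeR) and -0.57 (SE 0.093, adjusted p of 0.00133 by edgeR), which became -0.29 and -0.37 with GC and length trends removed (edgeR adjusted p 0.00842 and 0.0142). Dlgap1 (ENSMUSG00000003279, chr17:69969073-70821413), the most abundant of the 4 per kilobase, had 706.5, 669.8 and 684.1 CPM in the Control libraries and 620.3, 573.1 and 598.0 CPM in those of CBP-ifKO. Its smaller change of -0.20 (SE 0.055, adjusted p of 0.0365 by edgeR) also came without overlap, but the call was lost with GC and length trends removed (-0.15, edgeR adjusted p 0.0724) and with library totals as the only scaling (-0.16, edgeR adjusted p 0.105). It was also lost without Control replicate 1 or 3 (edgeR adjusted p 0.109 and 0.135) and without CBP-ifKO replicate 2 or 3 (0.154 and 0.170), with estimates from -0.20 to -0.17. Dlgap2 did not pass the threshold (68.4 ± 8.16 against 60.9 ± 2.59 CPM, SD, n = 3, edgeR adjusted p 0.258).

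All 3 SHANK scaffolds, which organise the deep layer of the postsynaptic density, were called lower. Shank3 (ENSMUSG00000022623, chr15:89499623-89560261) had 91.7, 103.0 and 99.6 CPM in the Control libraries and 79.5, 59.8 and 74.3 CPM in those of CBP-ifKO, with no overlap (log2 fold change -0.47, SE 0.089, adjusted p of 0.00427 by edgeR). Shank1 (ENSMUSG00000038738, chr7:44310253-44360572) had 249.3, 171.8 and 241.8 CPM in the Control libraries and 182.0, 132.5 and 154.0 CPM in those of CBP-ifKO. Shank2 (ENSMUSG00000037541, chr7:144001928-144424494) had 159.0, 122.0 and 155.2 CPM in the Control libraries and 125.1, 105.3 and 118.2 CPM in those of CBP-ifKO. For both of them Control replicate 2 was the low Control library and lay below CBP-ifKO replicate 1, so that the groups overlapped. Their log2 fold changes were -0.50 (SE 0.119, adjusted p of 0.0175 by edgeR) for Shank1 and -0.32 (SE 0.090, adjusted p of 0.0400 by edgeR) for Shank2. None of the 3 calls held with GC and length trends removed, where the estimates were -0.26, -0.21 and -0.19 for Shank1, Shank2 and Shank3 (edgeR adjusted p 0.263, 0.149 and 0.116). With the replicate number as a block in the same fit, the estimates were -0.23, -0.20 and -0.19 and all 3 were called (edgeR adjusted p 0.0259, 0.0234 and 0.0380). No label says that these numbers pair samples, however, and the block raised all genes called from 1080 with the offsets alone to 1837. With DESeq2, Shank1 also missed the threshold (adjusted p 0.151). Shank3 kept its call with any single library left out. Shank1 and Shank2 lost theirs without Control replicate 1 (edgeR adjusted p 0.0646 and 0.138), Control replicate 3 (0.0978 and 0.182), CBP-ifKO replicate 2 (0.133 and 0.207) and CBP-ifKO replicate 3 (0.0854 and 0.129).

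The Homer adaptors, which tie SHANK to metabotropic glutamate receptors, had no call among 3 genes. Homer1 was at 266.3 ± 5.83 CPM (Control) against 274.0 ± 9.23 CPM (CBP-ifKO, SD, n = 3, log2 fold change 0.04, SE 0.055, adjusted p of 0.738 by edgeR). The count covers the whole gene, so the long scaffold form and the short activity-induced form were not separated. Homer2 and Homer3 had log2 fold changes of -0.13 and -0.25 (edgeR adjusted p 0.272 and 0.154), and 25.4% of the exon bases of Homer3 overlap Ddx49 on the other strand. Likewise, Grip1 and Pick1, PDZ proteins that bind AMPA receptor subunits, were not called (log2 fold changes -0.15 and 0.07, edgeR adjusted p 0.222 and 0.798). Pick1 was the least abundant of the 39 per kilobase and shares 18.6% of its exon bases with Gm49486 on the same strand.

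**Figure D2:**
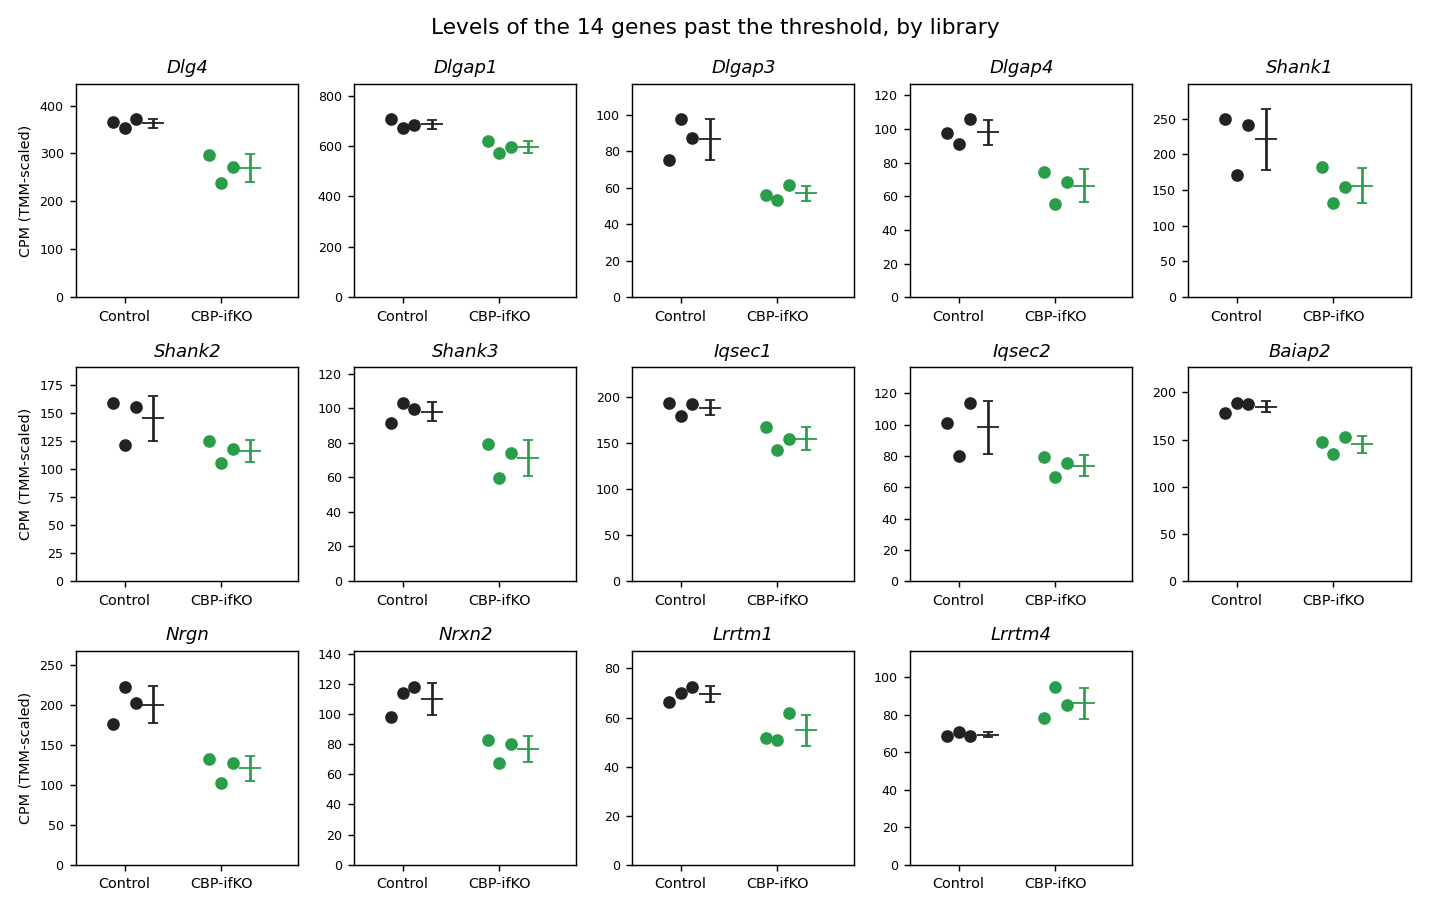
Level of each of the 14 called genes (y axis, TMM-scaled CPM from 0) in every Control (black) and CBP-ifKO (green) library, with replicates 1 to 3 from left to right and the mean and SD beside them (n = 3). The groups are separated in 12 panels and overlap for Shank1 and Shank2, where Control replicate 2 is low.

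Of 7 regulators of actin and of small GTPases in the spine, 3 were called lower and all 7 estimates were negative. Baiap2, which encodes IRSp53, a membrane-bending partner of Rac and Cdc42 (ENSMUSG00000025372, chr11:119942763-120006782), had 178.4, 188.8 and 187.8 CPM in the Control libraries and 147.7, 135.0 and 152.8 CPM in those of CBP-ifKO. This separation corresponded to a log2 fold change of -0.35 (SE 0.062, adjusted p of 0.00266 by edgeR), and to -0.20 with GC and length trends removed (edgeR adjusted p 0.0374). Iqsec1 and Iqsec2 encode exchange factors for the GTPase Arf6. Iqsec1 (ENSMUSG00000034312, chr6:90656088-90988685) had 193.9, 179.4 and 193.1 CPM in the Control libraries and 167.7, 142.4 and 154.9 CPM in those of CBP-ifKO (log2 fold change -0.29, SE 0.067, adjusted p of 0.0161 by edgeR). Iqsec2 (ENSMUSG00000041115, chrX:152144268-152225236) had 101.0, 79.9 and 113.9 CPM in the Control libraries and 79.7, 66.4 and 75.4 CPM in those of CBP-ifKO (log2 fold change -0.41, SE 0.103, adjusted p of 0.0232 by edgeR). Neither gene overlapped between groups, although the lowest Control and the highest CBP-ifKO values of Iqsec2 nearly met. Without GC and length trends Iqsec2 was not called (-0.21, edgeR adjusted p 0.287), while Iqsec1 was (-0.22, edgeR adjusted p 0.0253). Both calls were lost without Control replicate 1 (edgeR adjusted p 0.0504 for Iqsec1 and 0.0577 for Iqsec2), Control replicate 3 (0.0894 and 0.154), CBP-ifKO replicate 2 (0.104 and 0.149) and CBP-ifKO replicate 3 (0.0883 and 0.0824). Kalrn, the Rac exchange factor kalirin and the gene with the highest count of the list, was at 1057 ± 11.6 CPM (Control) against 1012 ± 38.3 CPM (CBP-ifKO, SD, n = 3, log2 fold change -0.06, edgeR adjusted p 0.546). Synpo, Frmpd3 and Frmpd4 had log2 fold changes of -0.23, -0.33 and -0.18 (edgeR adjusted p 0.183, 0.0928 and 0.111).

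Among neuroligins and neurexins, Nrxn2 fell and the other 3 genes were not called. Nrxn2, which encodes the presynaptic neurexin-2 (ENSMUSG00000033768, chr19:6418731-6544169), had 98.1, 113.5 and 117.9 CPM in the Control libraries and 82.8, 67.2 and 80.3 CPM in those of CBP-ifKO. The groups were separated, with a log2 fold change of -0.52 (SE 0.085, adjusted p of 0.00137 by edgeR) that became -0.23 with GC and length trends removed (edgeR adjusted p 0.0463). Nrxn3 had 312.4 ± 33.5 CPM (Control) against 280.0 ± 16.4 CPM (CBP-ifKO, SD, n = 3), with overlapping groups (log2 fold change -0.16, edgeR adjusted p 0.225). The postsynaptic partners Nlgn1 and Nlgn3 had log2 fold changes of -0.05 and 0.03 (edgeR adjusted p 0.647 and 0.888). Nlgn3 shares 41.2% of its exon bases with Gm21986 on the same strand.

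The LRRTM genes encode postsynaptic partners of neurexins and included the gene that rose. Lrrtm4 (ENSMUSG00000052581, chr6:80018877-80810143) had 68.4, 70.8 and 68.5 CPM in the Control libraries and 78.4, 94.8 and 85.3 CPM in those of CBP-ifKO. All 3 CBP-ifKO libraries were above the Control range, with a log2 fold change of 0.32 (SE 0.074, adjusted p of 0.0155 by edgeR). It remained called with GC and length trends removed (0.27, edgeR adjusted p 0.0355). The call was lost without Control replicate 3 (edgeR adjusted p 0.0775) or either of CBP-ifKO replicates 2 and 3 (0.0859 and 0.0542), with estimates from 0.25 to 0.38 over the 6 omissions. Of its exon bases, 25.1% overlap Gm4409 on the other strand, and whether the counting used strand was not stated. Lrrtm1 (ENSMUSG00000060780, chr6:77242689-77257791), on the same chromosome, had 66.2, 70.0 and 72.5 CPM in the Control libraries and 51.6, 50.7 and 62.05 CPM in those of CBP-ifKO. It was separated in the opposite direction (log2 fold change -0.35, SE 0.081, adjusted p of 0.0169 by edgeR), and lost its call without Control replicate 3 (edgeR adjusted p 0.0995) or either of CBP-ifKO replicates 1 and 2 (0.0692 and 0.111). The ratio of Lrrtm4 to Lrrtm1 CPM was 1.03, 1.01 and 0.945 in the Control libraries but 1.52, 1.87 and 1.37 in those of CBP-ifKO. Because both genes were named after their changes were known, the ratio is given without a test. Lrrtm2 and Lrrtm3 were not called (log2 fold changes 0.03 and -0.08, edgeR adjusted p 0.831 and 0.698).

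No gene of the remaining adhesion families was called. SLITRK proteins bind presynaptic receptor tyrosine phosphatases, and Slitrk1, Slitrk3 and Slitrk5 had log2 fold changes of -0.15, -0.11 and -0.04 (edgeR adjusted p 0.161, 0.362 and 0.786). The LRFN genes encode the SALM adhesion proteins. Lrfn1 and Lrfn2 had estimates as large as some called genes, -0.42 and -0.34, with standard errors of 0.140 and 0.103 (edgeR adjusted p 0.0876 and 0.0611). Lrfn5 stood at -0.18 (edgeR adjusted p 0.0841), and Il1rapl1, an interleukin receptor-like adhesion protein linked to intellectual disability, at 0.02 (edgeR adjusted p 0.934).

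**Figure D3:**
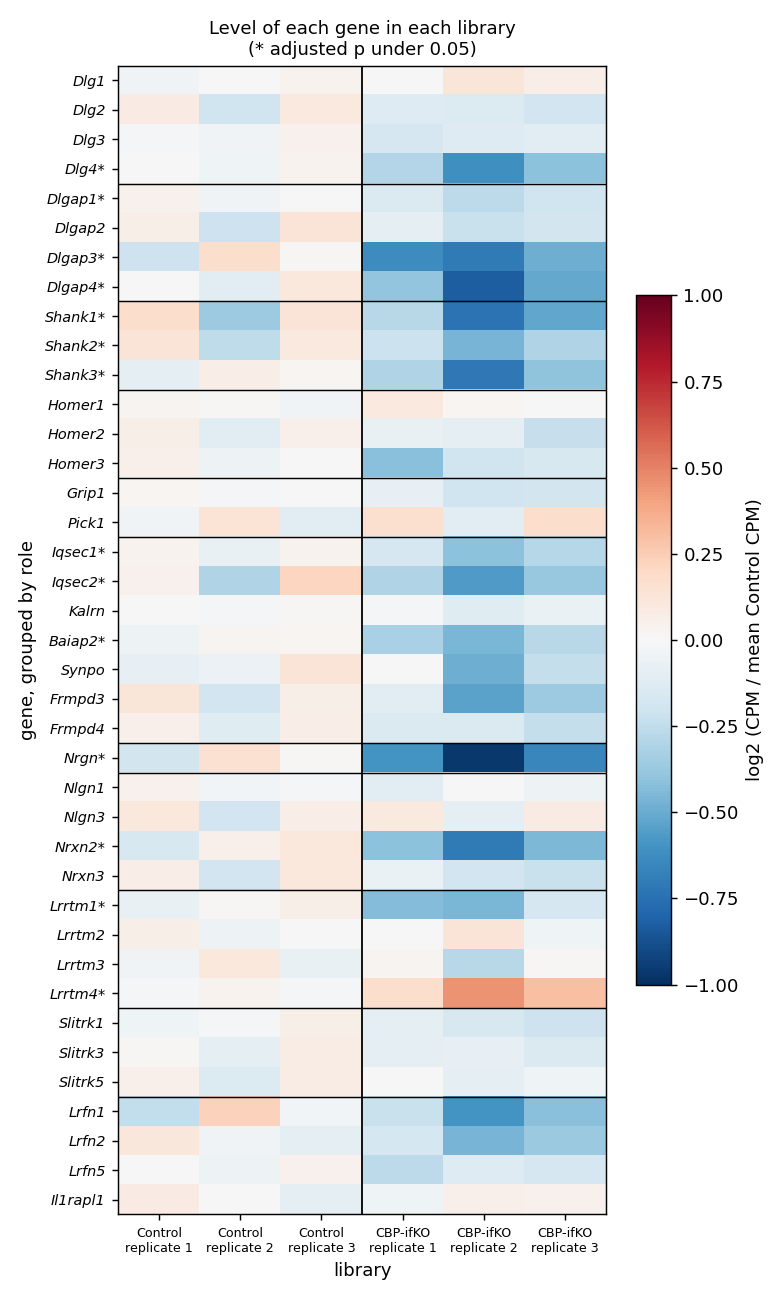
Level of each of the 39 genes (rows, grouped by role) in each of the 6 libraries (columns), as log2 of CPM over the mean Control CPM, from -1 (blue) to 1 (red), with asterisks on called genes. CBP-ifKO replicate 2 holds the darkest blue cells, for Nrgn, Dlgap4, Shank1, Shank3 and Nrxn2, and Lrrtm4 is the row with the deepest red in the CBP-ifKO columns.

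Levels per kilobase of exon, the scale used here to set different genes side by side, spanned a wide range in Control. The length was the exon length given with the counts, which can differ from that of the transcripts expressed, so the order is approximate. Nrgn was the most abundant at 137.9 ± 15.9 CPM per kilobase (SD, n = 3), followed by Kalrn at 44.0 ± 0.48. Dlg3, Dlgap1 and Baiap2 came next at 39.5 ± 1.16, 38.4 ± 1.03 and 37.1 ± 1.15, and neighbours among these 3 did not differ beyond their spread. The lowest were Lrfn1 at 3.86 ± 0.64, Frmpd3 at 3.14 ± 0.35 and Pick1 at 1.86 ± 0.16 CPM per kilobase. Counts per library ranged from 114 to 14828 over the 39 genes, and their median Control level of 111.3 CPM compares with 13.8 CPM over all genes tested. The lowest Control levels on the CPM scale were those of Pick1 (12.2), Lrfn1 (15.1), Homer3 (24.1) and Lrfn2 (25.2), whose log2 fold changes had SEs of 0.126, 0.140, 0.098 and 0.103, against 0.053 for Kalrn.

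**Figure D4:**
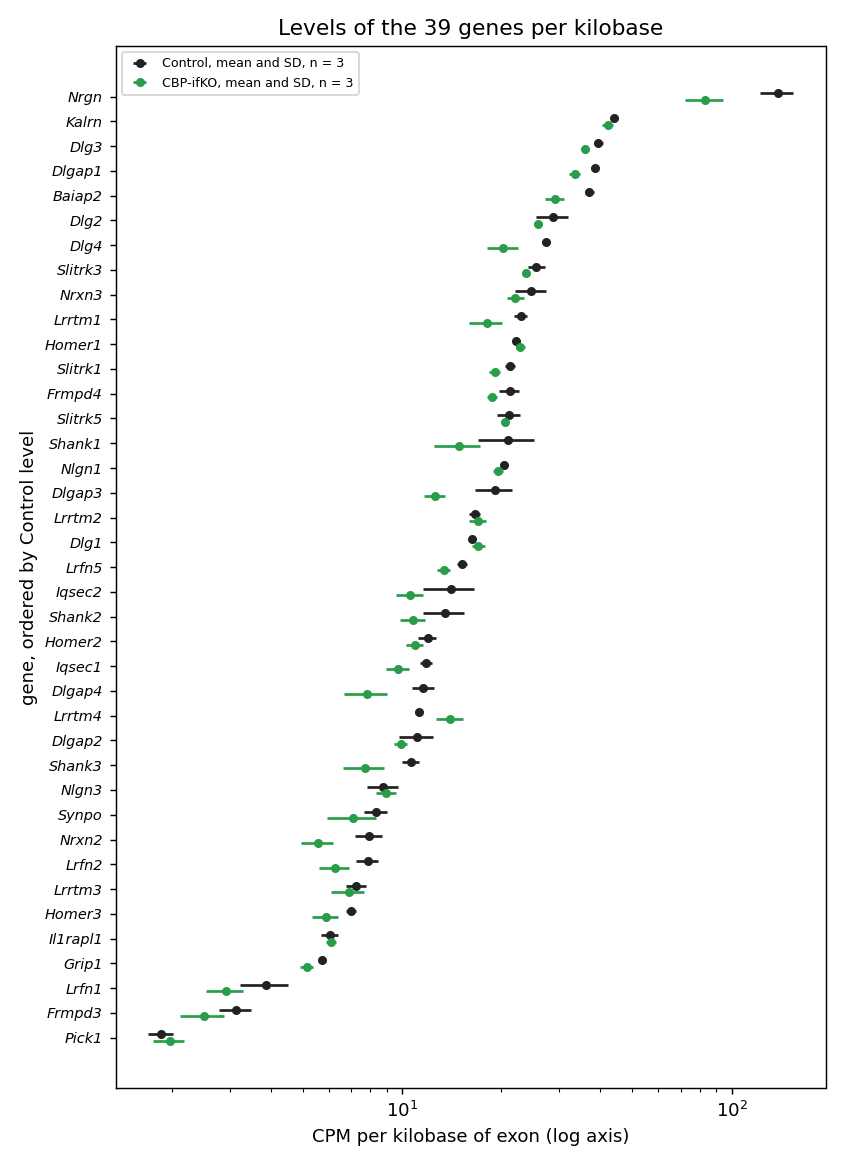
Level of each gene in CPM per kilobase of exon (log x axis) in Control (black) and CBP-ifKO (green), as mean and SD of 3 libraries, ordered by Control level. Nrgn stands above all others, from 137.9 in Control, and the 8 lowest genes, from Lrfn2 down to Pick1, were not called.

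Lower log2 fold changes went with a higher GC content of the transcripts. Spearman's rho between the 2 was -0.80 over the 39 genes and -0.29 over 17956 genes tested with a known GC content. Genes are not independent replicates, and the points share the same 6 libraries, so the values are descriptive. Among the 14 genes with at least 55% GC, 8 were lower (57.1%, median log2 fold change -0.42), where 19.4% of all genes of this GC range with at least 10 CPM were lower. Among the 25 genes under 55% GC, 5 were lower (20%, median -0.13), where 4.78% of all such genes at 10 CPM or more were lower. The libraries themselves differed in this respect. The slope of log2 level on GC content was -0.023, 0.134 and 0.037 per 10 percentage points for Control replicates 1 to 3, and -0.022, -0.110 and -0.015 for CBP-ifKO replicates 1 to 3, each relative to the mean of the 6.

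When a trend on GC content and length was removed from each library, 10 of the 39 genes were lower and 1 was higher, against 3.95% and 2.06% of all genes. The correction took the GC content of the longest annotated transcript of each gene, which may not be the one expressed. Nrgn, Dlg4, Dlgap3, Dlgap4, Nrxn2, Baiap2, Iqsec1 and Lrrtm1 kept their calls, as did Lrrtm4, but the estimates of the 8 lower genes were nearer to 0, by the most for Dlgap3 and Nrxn2 and by the least for Dlg4. Dlgap1, Iqsec2 and the SHANK genes lost theirs, and Frmpd4 and Lrfn5 passed the threshold at log2 fold changes of -0.18 and -0.20 (edgeR adjusted p 0.0459 and 0.0490). The median log2 fold change of the 39 genes was then -0.14, and rho with GC content was -0.53 over these genes and 0.0092 over all genes.

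**Figure D5:**
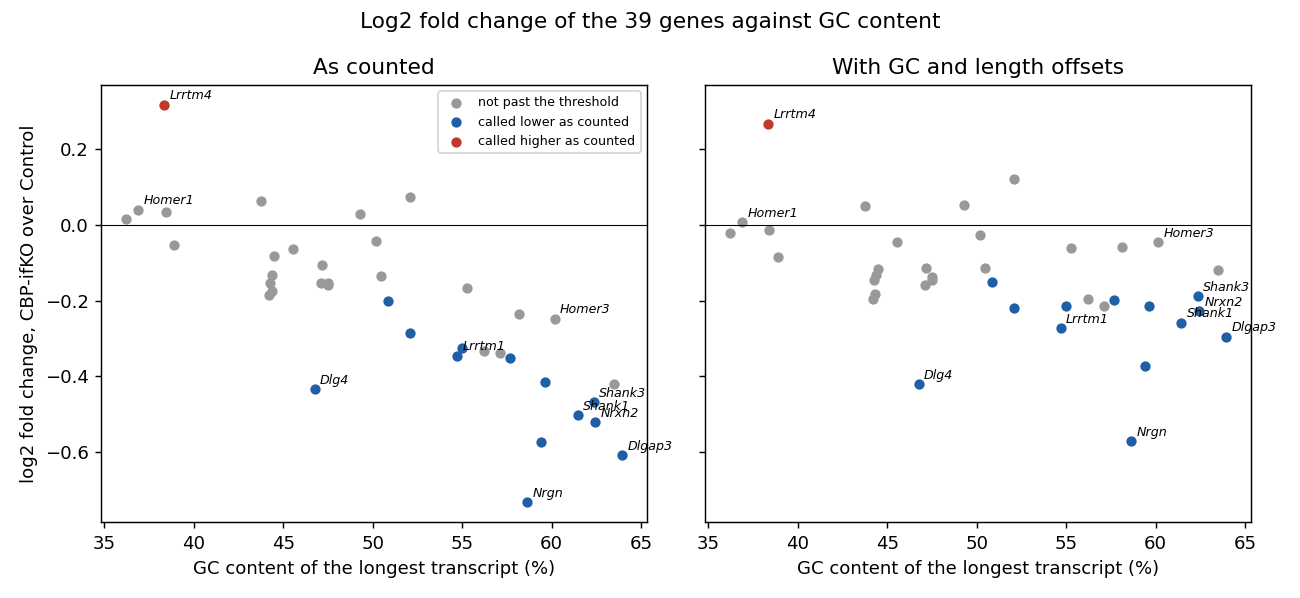
Log2 fold change (CBP-ifKO over Control, y axis) of the 39 genes against the GC content of the longest transcript (x axis, %), from the counts as deposited (left) and with GC and length trends removed from each library (right). Blue and red mark genes called lower and higher from the counts as deposited, and the points at high GC content lie nearer to 0 on the right while Dlg4, at 46.8% GC, stays at -0.42.

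Other genes of the same compartments were taken from a second list of 65, all of which were tested. Of these, 16 were lower and 0 higher by edgeR and 14 were lower and 0 higher by DESeq2, against the 4.99% called lower over all genes, and the median log2 fold change was -0.14. An unadjusted edgeR p under 0.05 was found for 34 of the 65, and for 3816 of all 17981 genes tested. The lower genes comprised 10 of 30 other postsynaptic scaffold and signalling genes, 5 of 31 other adhesion genes and 1 of 4 inhibitory scaffold genes. Among the called genes, the largest decreases were those of Flrt1 (-0.70), Mdga1 (-0.64) and Lrrc4b (-0.57), adhesion genes of which Mdga1 encodes a binding partner of neuroligin-2. They were followed by Ppp1r9b (-0.46), which encodes the spine protein spinophilin, Mpp2 (-0.45), a MAGUK, and Caskin1 (-0.41), with edgeR adjusted p of all 6 between 0.000375 and 0.00644. With GC and length trends removed, the 6 estimates in this order were -0.63, -0.44, -0.29, -0.19, -0.32 and -0.17, and Caskin1 was no longer called (edgeR adjusted p 0.130). Its call was also lost without CBP-ifKO replicate 2 (-0.32, edgeR adjusted p 0.0554).

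Markers of the cells in the tissue were read beside these genes. Of the CA1 pyramidal list, 4 of 5 genes were lower, and its summed level ranged from 349.2 to 361.2 CPM in Control and from 221.6 to 235.8 CPM in CBP-ifKO. Summed levels of the CA3 list were 307.7 to 321.6 and 261.6 to 275.9 CPM (1 of 5 lower), and of the dentate granule list 347.1 to 381.2 and 369.7 to 406.6 CPM (2 of 5 lower). The general neuronal list summed to 5737 to 5811 CPM in Control and 5304 to 5456 CPM in CBP-ifKO (3 of 6 lower), the excitatory neuron list had 1 of 5 genes lower and the interneuron list 2 of 7. No gene of the astrocyte, oligodendrocyte, microglia or endothelial lists, of 6 genes each, passed the threshold, nor did any of the 3 choroid plexus genes tested, while 1 of 5 striatal genes tested was higher (Rgs9). The part that these cell populations have in the values of the postsynaptic genes was not tested.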

How the data were processed

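Per the study's methods and the submitters' processing notes, the authors trimmed the reads with Trim Galore (version 0.6.4), aligned them with STAR (2.6.1) to GRCm38, dropped alignments with a mapping quality of 10 or less, and counted reads over the exons of Ensembl release 99 genes with Rsubread. The deposited values were those counts per gene, without any normalization. Whether counting used strand is not given in the sources used here. Libraries were single-end with reads of 50 bp.

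Groups and replicate numbers came from the sample labels. Symbols, coordinates and GC content (of the longest annotated transcript of each gene) came from GENCODE M21 (GRCm38), which matched 55230 of 55471 identifiers. Counts were tested with the quasi-likelihood F-test of edgeR (4.0.16, R 4.3.3) with TMM scaling, filterByExpr (minimum count 10, minimum total 15) and p-values adjusted by Benjamini-Hochberg across all 17981 tested genes, with an adjusted p under 0.05 as threshold. This gave 1149 genes, 897 lower and 252 higher. Standard errors were obtained by dividing the estimate by the root of the F statistic. Levels are TMM-scaled CPM. No source says how the pools of mice were formed, so p-values measure only the spread between these samples, which may be technical. Replicates differed by more than sampling noise (chi-square per degree of freedom 2.32 to 5.49), and no library was a copy of another.

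The 39 genes, the related genes and the marker lists were chosen with earlier results of these data known, so no test was made over a list. Named genes were all 39, Crebbp, Esr1 and Arsi as checks, and up to 6 related genes with the largest called changes in each direction. Alternatives were DESeq2 (1.42.0), relative log expression (RLE) scaling, library totals only, no filter on low counts, each library left out, a replicate block, and offsets that remove per-library trends on GC content and length (natural splines, 5 degrees of freedom), alone and with the block. The main fit, DESeq2, the offsets and the block were run on simulated data in which 200 genes changed. Those changes were larger than any estimate among the 39 genes, and no GC trend was simulated. The simulation therefore does not bear on calls of smaller changes or on the removal of GC trends. Promoter windows were from RefSeq (GRCm38.p6), and in 41 of the 52 windows the first 30 bases after the start were found in a GENCODE transcript of the gene.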

Additional observations from a re-analysis of the deposited data

How the results depend on the processing

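Dlg4, Dlgap3, Dlgap4, Baiap2, Nrgn and Nrxn2 kept their calls in all 7 alternatives with the full set of libraries and in all 6 omissions of 1 library. Of the 39 genes, the number called lower (13 as reported) was 12 with DESeq2 (without Shank1), 13 with RLE scaling, 11 with library totals only (without Dlgap1 and Shank2), 15 without a filter on low counts (with Frmpd3 and Lrfn1), 10 with GC and length offsets and 15 with these and the block, and Lrrtm4 was called higher in each. Library totals only gave 667 lower and 514 higher genes in all, against 897 and 252. With a replicate block the number was 15 (with Frmpd3 and Lrfn2), but same-numbered samples correlated by only 0.0769, 0.0369 and 0.00216 in their deviations from the group means, Control replicate 2 correlated best with CBP-ifKO replicate 3, and no label says that the numbers pair samples. All genes called numbered 1837 with the block and GC and length offsets together. Over omissions of 1 library, all genes called ranged from 498 to 1326, the 39 genes called lower from 7 to 18 and called higher from 0 to 1, related genes called lower from 8 to 21, the median log2 fold change of the 39 genes from -0.23 to -0.15 and that of the related genes from -0.17 to -0.11. For all genes and the related genes the lowest counts came without CBP-ifKO replicate 2, for the 39 genes called lower without it or Control replicate 3, and for those called higher without CBP-ifKO replicate 2 or 3 or Control replicate 3. The highest counts of lower genes came without Control replicate 2, and an arm of 2 libraries raises the error. The median of the related genes was -0.093 with library totals only. Signs turned with GC and length offsets for some related genes that were not called, such as Nlgn2 (from -0.18 to 0.049) and Lrfn3 (from -0.14 to 0.079). Among the 39 genes, signs turned only for genes near 0. Lrrtm2 became -0.014 and Il1rapl1 -0.021 with offsets (-0.015 and -0.022 with the block too), and Slitrk5 became 0.0039 with library totals only. Over omissions, Nlgn3 ranged from -0.051 to 0.098, Lrrtm2 from -0.010 to 0.080, Lrrtm3 from -0.13 to 0.024, Slitrk5 from -0.098 to 0.00035 and Il1rapl1 from -0.024 to 0.056. Shares of reads from overlapping genes cannot be resolved at gene level. Pick1, Lrfn1, Lrfn2 and Homer3, with low counts, had standard errors from 0.098 to 0.140. Some genes with more counts had similar ones, such as Shank1 (0.119) and Iqsec2 (0.103). Changes of the size seen for Dlgap1 were not detectable at such standard errors. The cause of the calls lost with offsets was not tested.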
